A study of Mus musculus with 8 samples.

Results

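The 9 Serpina genes examined here in mouse liver were Serpina1a, Serpina1b, Serpina1c, Serpina1d, Serpina1e, Serpina3k, Serpina3m, Serpina3n and Serpina6. They were taken by name from the Serpina family, with earlier results of these data known, and the deposited transcripts were summed to each gene. All 9 passed the filter on low counts (at least 10 counts in every library), among 12883 genes tested of 35975 genes with a transcript in the table. The table held 29 genes whose name starts with Serpina, of which 18 were tested.

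Livers came from C57BL/6 mice (C57BL/6J in the paper) that carried a catheter in the portal vein, fed by an osmotic pump for 2 weeks. Pumps of the Normal Saline group (n = 4 mice) held the vehicle, and those of the 4-HPAA group (n = 4 mice) held 55 mM 4-hydroxyphenylacetic acid, a product of gut microbial metabolism, in saline. Both groups therefore shared the surgery, the catheter, single housing and an infusion of 0.25 µL per hour, and the study's mice were 8 to 10 weeks old and of both sexes. The comparison asks whether delivery of the metabolite straight to the liver changes liver transcripts. Each library held between 29559978 and 30673398 estimated counts, and depth did not differ detectably between the groups (two-sided p = 0.343, exact permutation test). The paper describes mice of both sexes, and the labels do not give the sex of each mouse. Transcripts of 4 Y-linked genes summed to between 152 and 180 CPM (counts per 1000000, normalized by TMM) in every library. Each of the 8 libraries thus held RNA of male liver. Hepatocyte markers (6 of 6 detected) summed to between 103170 and 138009 CPM, neutrophil markers lay under 1 CPM in all 6 cases, and red blood cell markers (5 of 5 detected) summed to 2560 CPM in saline replicate 2 and 734 CPM in 4-HPAA replicate 4 against 152 to 376 CPM in the other libraries.

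Serpins are a superfamily of proteins that mostly inhibit serine proteases by a trap: the target cleaves an exposed loop of the serpin, the loop then folds into the body of the serpin, and the protease is left distorted and bound. Hepatocytes secrete the Serpina clade into plasma. Alpha-1 antitrypsin, the product of the Serpina1 genes, is known for protecting tissue against neutrophil elastase. The mouse has several Serpina1 paralogs and an expanded Serpina3 cluster where humans have a lone gene of each kind. Serpina6 encodes corticosteroid-binding globulin, a serpin that carries glucocorticoids in plasma and does not inhibit proteases.

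The 5 Serpina1 paralogs were nearly identical in coding sequence, which limits how well their reads can be told apart. Identity over the 1239 coding bases ranged from 96.3% to 98.5% in the 10 pairs and was highest between Serpina1a and Serpina1c, and 86 positions (6.94%) varied among the 5. In the 60 coding bases with the most variation, 18 positions varied. This window, coding bases 1101 to 1160 in the last of 5 exons, covers the part that encodes the reactive centre loop, which meets the protease. It is shown because it is where the paralogs differ most, with capitals at positions that vary among the 5 (GENCODE M21 transcripts, GRCm38):
Serpina1a, chr12:103853757-103853816, minus strand: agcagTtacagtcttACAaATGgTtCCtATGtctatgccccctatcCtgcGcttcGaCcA
Serpina1b, chr12:103728324-103728383, minus strand: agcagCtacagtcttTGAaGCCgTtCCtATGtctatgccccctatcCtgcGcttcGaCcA
Serpina1c, chr12:103895094-103895153, minus strand: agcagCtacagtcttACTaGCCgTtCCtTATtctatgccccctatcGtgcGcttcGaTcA
Serpina1d, chr12:103763762-103763821, minus strand: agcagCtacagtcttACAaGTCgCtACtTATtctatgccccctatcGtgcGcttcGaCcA
Serpina1e, chr12:103947100-103947159, minus strand: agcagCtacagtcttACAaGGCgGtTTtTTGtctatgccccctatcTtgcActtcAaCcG

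Kallisto, the program that produced the counts, assigns reads by short words of sequence, by default of 31 bases. The main transcript of Serpina1a had 133 of its 1330 words of 31 bases (10%) in no other gene, and 77.4% of its words also occurred in Serpina1c. For Serpina1c, 14.2% of words were private and 77.5% were shared with Serpina1a. Private words made up 35.6% of Serpina1b, 35.3% of Serpina1d and 43.6% of Serpina1e, so that Serpina1e was the best marked of the 5. It shared most with Serpina1c, where 46.5% of its words also occurred, so reads of these genes may also be divided with error. In the Serpina3 group the share was 75.8% for Serpina3k, 65% for Serpina3m, of whose words 24.5% recurred in Serpina3k, and 78.4% for Serpina3n. All words of Serpina6 (100%) were private. The division of reads between Serpina1a and Serpina1c is therefore the least certain value among the members, and the merged Serpina1 count does not depend on it. The annotated span of Serpina1b (chr12:103728156-103830373, minus strand) includes Serpina1d (chr12:103763594-103773592, minus strand), and that of Serpina3m (chr12:104338486-104394257, plus strand) includes Serpina3k (chr12:104338486-104346144, plus strand). Reads from these overlaps may also be divided with error.

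**Figure D1:**
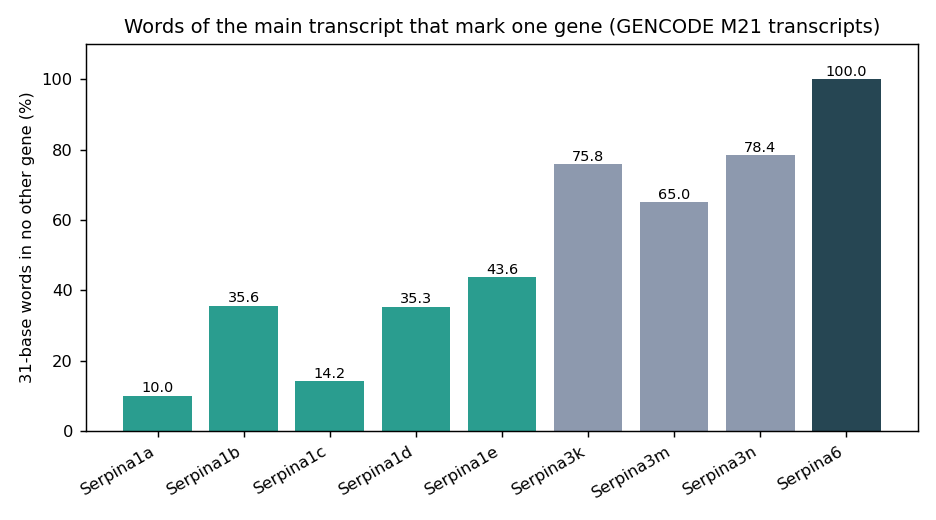
Share of the 31-base words in each gene's main transcript that occur in no other gene of the annotation, in percent (bars; green Serpina1, grey Serpina3, dark Serpina6). The bars rise from 10% for Serpina1a and 14.2% for Serpina1c to 100% for Serpina6.

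The 9 members together made up 3.53% to 4.56% of a library's counts, and the 5 Serpina1 paralogs alone 2.54% to 3.29%. After division by transcript length (counts per kilobase of transcript, with each library scaled to the same total), the mean level over the 8 libraries was 9299 ± 3639 for Serpina1e, 8713 ± 892 for Serpina1c and 8327 ± 714 for Serpina3k (SD, n = 8). Serpina1e exceeded Serpina1c in 4 of 8 libraries and Serpina1c exceeded Serpina3k in 6 of 8, so the order of these leading genes was not set. On the same per-length scale Serpina1b followed at 6737 ± 613 and Serpina1a at 6121 ± 543, with overlapping ranges although Serpina1b was higher in 8 of 8 libraries. Serpina1d, at 4352 ± 334, lay below Serpina1a in 8 of 8 libraries without overlap of their ranges. Mean levels of the remaining members lay 12.1-fold or more below that of Serpina1d: Serpina3m at 361 ± 107, Serpina3n at 354 ± 50.0 and Serpina6 at 312 ± 59.1 on this scale. Serpina3m exceeded Serpina3n in only 3 of 8 libraries, and Serpina3n exceeded Serpina6 in 7 of 8.

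None of the 9 members passed the test for a difference between 4-HPAA and saline. Adjusted p was 1.00 for each of them (Benjamini-Hochberg over 12883 genes, edgeR's quasi-likelihood test), and 0 of 9 passed the threshold of 0.05, where 0% of all genes did. At an unadjusted p under 0.05 the count was 0 of 9 against 1.75% of all genes, and DESeq2 and limma-voom each called 0 of 9 (DESeq2 0.0155% of all genes, limma-voom 0%). The paper, which also used DESeq2, reports more genes that differed between the groups, and the reason was not tested. In no member did the 2 groups separate in CPM, against 1.2% of all genes. The log2 fold change was below 0 in 7 members (49.6% of all genes) and above 0 in 2, with a median of -0.03 and a range of -0.17 to 0.08. The median absolute log2 fold change was 0.08 in the members and 0.07 in all genes tested.

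**Figure D2:**
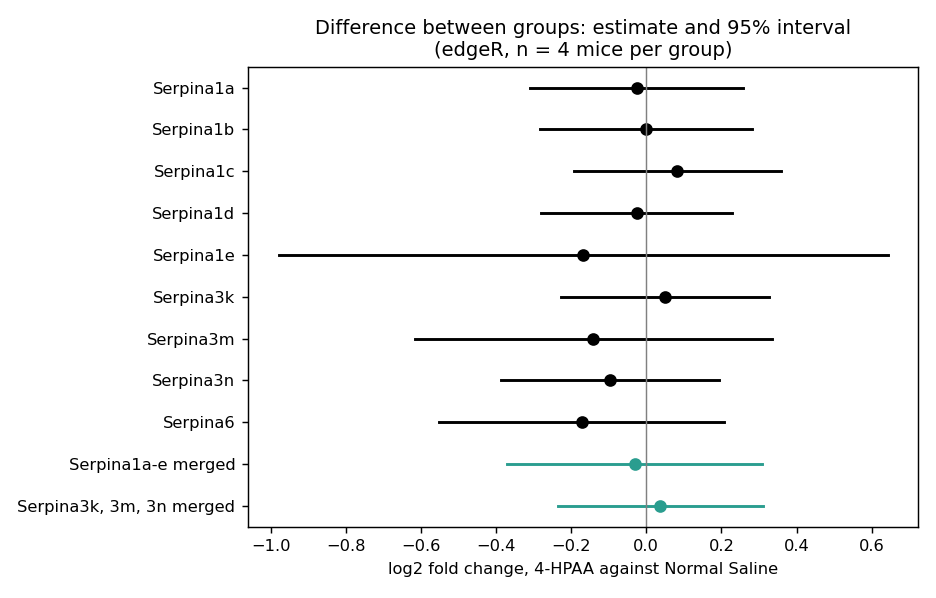
Log2 fold change of 4-HPAA against Normal Saline (points) with its 95% interval (lines) for the 9 members and for the merged Serpina1 and Serpina3 paralogs, n = 4 mice per group. All 11 intervals cross 0, and the interval of Serpina1e (-0.98 to 0.64) is the widest.

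Among the alpha-1 antitrypsin genes, Serpina1a (chr12:103853589-103863562, minus strand) was at 4916, 4841, 4505 and 5626 CPM in saline replicates 1 to 4 and at 5417, 4355, 4291 and 5478 CPM in 4-HPAA replicates 1 to 4. In both groups the mouse numbered 4 was highest and the mouse numbered 3 lowest, and the groups overlapped. The means were 4972 ± 471 and 4885 ± 650 CPM (± SD of 4 mice), and the fitted log2 fold change was -0.03 (standard error 0.13, 95% interval -0.31 to 0.26).

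Serpina1b was at 5681, 5163, 5065 and 6276 CPM with saline and at 5997, 4997, 4916 and 6268 CPM with 4-HPAA, in the order of the replicate numbers. Its libraries ranked exactly as those of Serpina1a did, and the ranges of both groups nearly coincided. The means of 5546 ± 557 and 5544 ± 689 CPM (± SD of 4 mice) corresponded to a log2 fold change of -0.00047 (standard error 0.13, 95% interval -0.28 to 0.28).

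Serpina1d was at 3729, 3498, 3333 and 3891 CPM with saline and at 3871, 3372, 3050 and 3900 CPM with 4-HPAA. It was again highest in the mouse numbered 4 and lowest in the mouse numbered 3 of each group. Mean levels were 3613 ± 247 and 3548 ± 411 CPM (± SD of 4 mice), and the fitted log2 fold change was -0.03 (standard error 0.11, 95% interval -0.28 to 0.23).

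Serpina1c (chr12:103894926-103904887, minus strand) was at 7193, 6401, 7301 and 6266 CPM with saline and at 8463, 6972, 7004 and 6333 CPM with 4-HPAA. Here the mouse numbered 4 was the lowest of each group, and 4-HPAA replicate 1 was the highest library. The means were 6790 ± 532 and 7193 ± 901 CPM (± SD of 4 mice), and the fitted log2 fold change was 0.08 (standard error 0.12, 95% interval -0.19 to 0.36).

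Serpina1e (chr12:103946931-103958975, minus strand) varied most. It was at 3665, 9155, 7252 and 11056 CPM with saline and at 4903, 5369, 5657 and 11785 CPM with 4-HPAA. The mouse numbered 4 was the highest and the mouse numbered 1 the lowest of each group, and the span from lowest to highest library was 3.22-fold (3.02-fold within saline and 2.40-fold within 4-HPAA). In the other Serpina1 genes that span was between 1.28-fold and 1.35-fold. Means of 7782 ± 3154 and 6929 ± 3252 CPM (± SD of 4 mice) corresponded to a log2 fold change of -0.17 (standard error 0.36), and the 95% interval of the ratio ran from 0.507 to 1.56. The estimate ranged from -0.56 to 0.05 on the log2 scale as each library was left out in turn, turning positive without saline replicate 4.

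**Figure D3:**
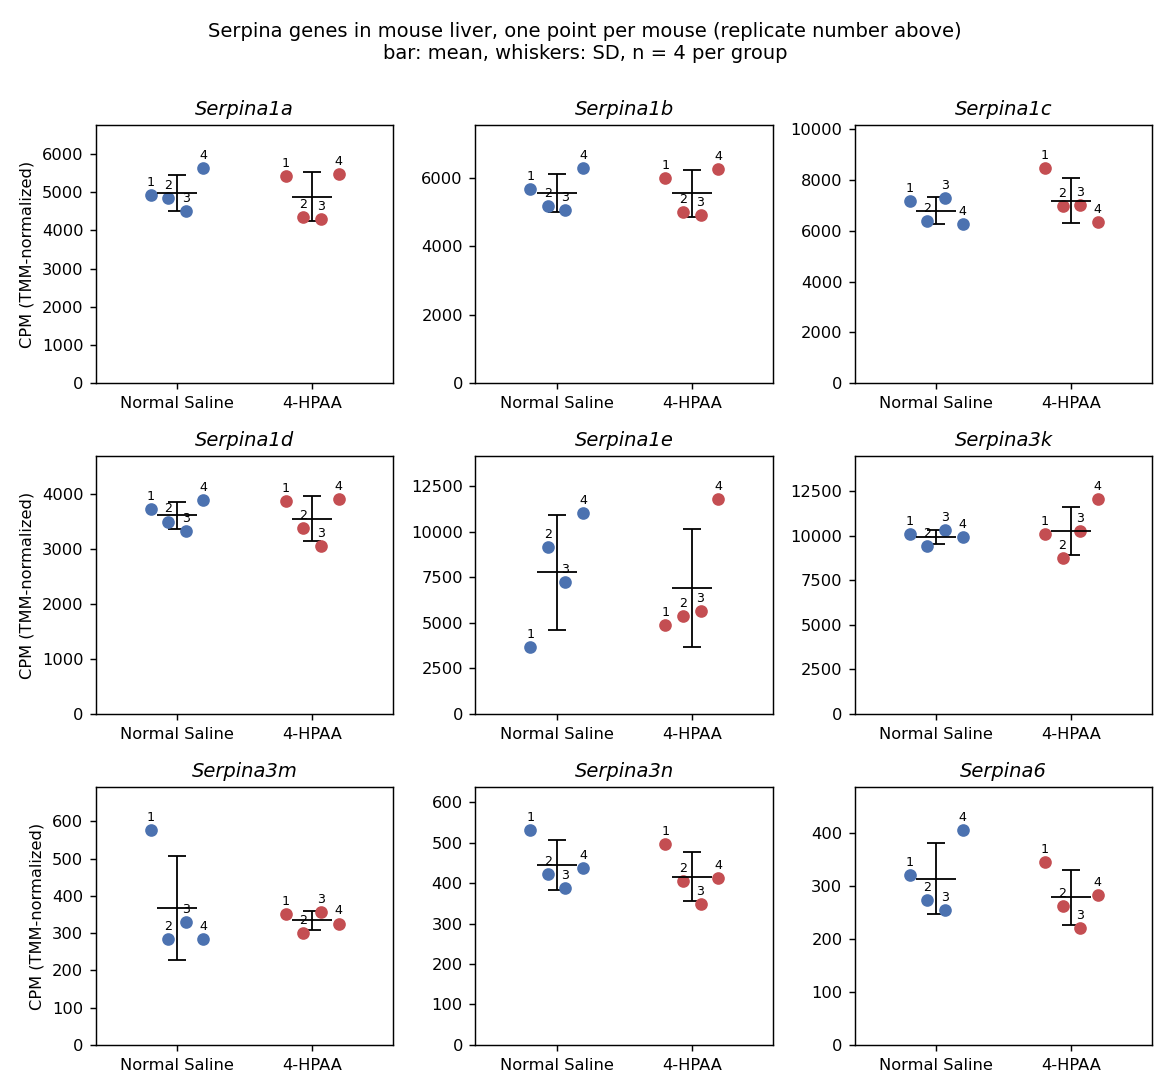
Normalized level (CPM, linear axis from 0, scaled per gene) of the 9 members in each mouse, blue for Normal Saline and red for 4-HPAA, with replicate numbers beside the points; bars are means and whiskers SD (n = 4 per group). The groups overlap in every panel, and Serpina1e runs from 3665 to 11785 CPM while Serpina1a, Serpina1b and Serpina1d repeat one pattern.

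Across all 12883 genes, 3.17% had a larger SD of log2 CPM over the 8 libraries than Serpina1e (0.60). Among the 122 genes at a mean of 1000 CPM or more it ranked 5th, while Serpina1a, Serpina1b, Serpina1c and Serpina1d ranked between 60th and 75th. Both libraries in which Serpina1e was highest also stood at an end of several marker lists. Saline replicate 4 and 4-HPAA replicate 4 had the highest sums of hepatocyte markers (138009 and 136235 CPM against 103170 to 120233 CPM in the others). They also had the lowest sums for Kupffer cells (76 and 68.1 CPM against 88.7 to 253 CPM, 7 of 7 markers detected), endothelial cells (88.7 and 87.8 CPM against 113 to 146 CPM, 5 of 5) and stellate cells (94.8 and 108 CPM against 127 to 191 CPM, 6 of 6). Cholangiocyte markers did not follow this, at 23.4 CPM in saline replicate 4 and 37.9 CPM in 4-HPAA replicate 4 against 23.9 to 45.5 CPM. Neutrophil markers, at 1.51 and 1.26 CPM in these libraries, lay within the range of the others (0.647 to 1.58 CPM). In bulk tissue, fewer cells of a type and less RNA per cell cannot be told apart. The part of these differences in the level of Serpina1e was not tested. With both libraries numbered 4 left out, a setting chosen after the data were seen, 0 of 9 members passed and the log2 fold change of Serpina1e was -0.33.

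As a share of the Serpina1 counts, Serpina1e held 14.6%, 31.5%, 26.4% and 33.4% in saline replicates 1 to 4 and 17.1%, 21.4%, 22.7% and 34.9% in 4-HPAA replicates 1 to 4. Its place among the 5 paralogs thus moved from the lowest share in one mouse to the highest in others. Serpina1c held 28.6%, 22%, 26.6% and 18.9% with saline and 29.5%, 27.8%, 28.1% and 18.8% with 4-HPAA, and was low where Serpina1e was high. The mean share of Serpina1e was 26.5 ± 8.47% in saline mice and 24.0 ± 7.63% in 4-HPAA mice (± SD of 4 mice; two-sided p = 0.657, adjusted over 5 shares 0.971, exact permutation test). For Serpina1c the means were 24.0 ± 4.37% and 26.1 ± 4.92% (exact permutation test, p = 0.6, adjusted 0.971). Shares of Serpina1a (17.4% in both groups), Serpina1b (19.4% and 19.8%) and Serpina1d (12.7% in both) differed by less than 1 SD between the groups (adjusted p 0.971 each, exact permutation test). The smallest p that 4 against 4 mice allow is 0.0286.

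**Figure D4:**
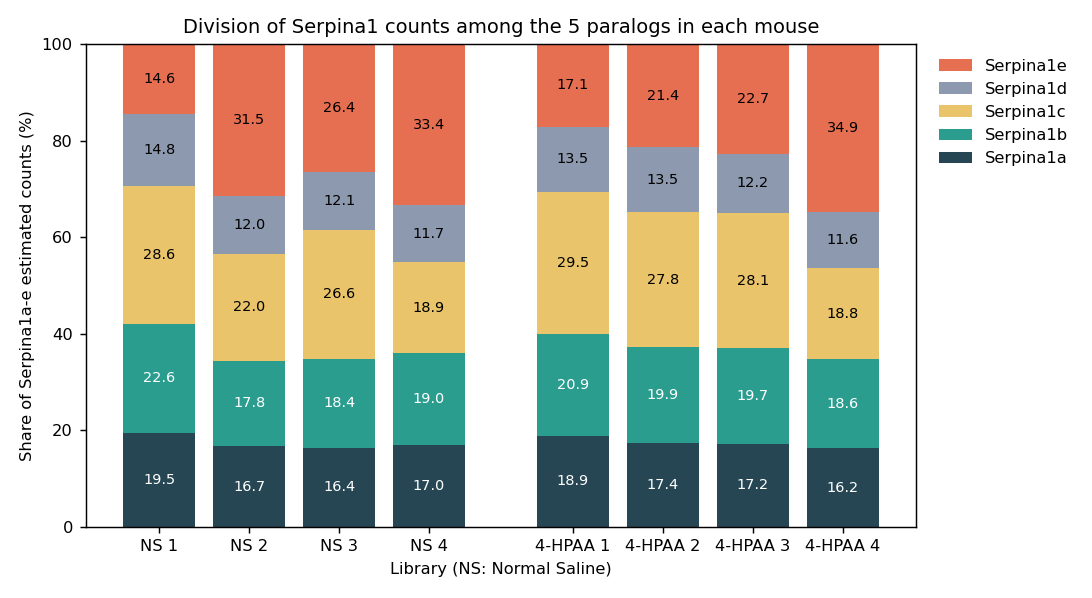
Share of the Serpina1a to Serpina1e estimated counts held by each paralog in each library, in percent; every bar sums to 100. The Serpina1e segment runs from 14.6% in Normal Saline replicate 1 to 34.9% in 4-HPAA replicate 4.

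Summed over Serpina1a to Serpina1d, the level spanned only 1.23-fold, from 19261 to 23747 CPM, and with Serpina1e it spanned 1.36-fold. When the 5 paralogs were merged before the fit, total Serpina1 was at 25187, 29059, 27460 and 33116 CPM with saline and at 28655, 25062, 24914 and 33757 CPM with 4-HPAA. The mouse numbered 4 was highest in each group. The merged log2 fold change was -0.03 (standard error 0.15, 95% interval -0.37 to 0.31), with an adjusted p of 1.00 (edgeR's quasi-likelihood test over 12877 features).

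Movement between mice was shared by some paralogs and not by others. Over the 8 libraries, log2 CPM of Serpina1a and Serpina1b had a Pearson r of 0.97 and a Spearman rho of 1 (permutation p adjusted over 36 pairs of members, 0.000893 and 0.00179). Leaving out the 2 libraries farthest from the median gave an r of 0.95. Serpina1d followed both, with r of 0.94 to Serpina1a (rho 0.95, adjusted permutation p 0.00938 and 0.0137, r without 2 libraries 0.96) and r of 0.94 to Serpina1b (rho 0.95, adjusted permutation p 0.0152 and 0.0137, r without 2 libraries 0.93). Serpina1c, which shares the most sequence with Serpina1a, had an r of -0.13 to it (rho -0.38, adjusted permutation p 0.996 and 0.682, r without 2 libraries 0.12). Between Serpina1c and Serpina1e r was -0.73 (rho -0.76, r without 2 libraries -0.78), which did not pass after adjustment (permutation p 0.145 and 0.165). The part of words shared by Serpina1c and Serpina1e in this r was not tested. The hepatocyte marker sum was likewise highest in the 2 mice numbered 4 (138009 and 136235 CPM) and lowest in 4-HPAA replicate 3 (103170 CPM), as were Serpina1a, Serpina1b and Serpina1d, and its part in their shared movement was not tested. These pairs were examined after the data were seen, and the 8 points of each pair share their libraries.

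Over the 86 promoter bases compared here, the 5 Serpina1 genes were nearly identical. Promoter windows around the start were found in RefSeq (GRCm38.p6) for 6 of the 9 members, the Serpina1 genes and Serpina3n. Serpina3k, Serpina3m and Serpina6 had no entry. Words were searched on both strands. GTTAAT, the half-site of HNF1, a hepatocyte factor long known to act on the alpha-1 antitrypsin promoter, occurred in the 5 Serpina1 promoters and in 7.10% of 32851 promoters of the same length. TTGCNNAA, a word of C/EBP factors, occurred in Serpina1a, Serpina1b, Serpina1d and Serpina1e, but not in Serpina1c or Serpina3n, and in 10.8% of all promoters. The word TTCNNNGAA of STAT factors (8.30% of all promoters) and TATAAA (13.6%) occurred in 0 of the 6. The 86 bases that end shortly after the half-site are shown because 3 of these genes moved together between mice and the other 2 did not. Capitals mark the half-site. Any 2 of the 5 stretches differ at 2 to 7 of 86 positions:
Serpina1a, chr12:103863625-103863710, minus strand: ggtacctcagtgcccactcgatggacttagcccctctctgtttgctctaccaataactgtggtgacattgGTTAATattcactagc
Serpina1b, chr12:103738200-103738285, minus strand: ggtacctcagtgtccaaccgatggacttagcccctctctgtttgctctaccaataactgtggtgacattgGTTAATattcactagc
Serpina1c, chr12:103904962-103905047, minus strand: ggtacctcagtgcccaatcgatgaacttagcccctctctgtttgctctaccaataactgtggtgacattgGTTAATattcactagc
Serpina1d, chr12:103773634-103773719, minus strand: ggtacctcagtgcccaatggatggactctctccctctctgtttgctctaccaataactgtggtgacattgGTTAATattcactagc
Serpina1e, chr12:103956960-103957045, minus strand: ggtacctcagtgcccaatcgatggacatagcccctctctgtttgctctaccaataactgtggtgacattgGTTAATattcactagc

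In these stretches Serpina1a differed from Serpina1e at 2 positions and from Serpina1b at 3. Serpina1d, which moved with Serpina1a and Serpina1b, differed from them at 6 and 7 positions. Whether differences in the stretch bear on the levels was not tested. The distance from half-site to the RefSeq start was 16 to 27 bases in Serpina1a to Serpina1d and 78 bases in Serpina1e, whose start lies farther downstream. Matches are descriptions of the letters and were not tested as binding sites.

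Levels of the antichymotrypsin-like Serpina3 genes also overlapped between the groups. Serpina3k, which encodes a kallikrein-binding inhibitor, was at 10072, 9417, 10332 and 9903 CPM with saline and at 10082, 8747, 10251 and 12041 CPM with 4-HPAA. Except for a high 4-HPAA replicate 4 and a low 4-HPAA replicate 2, the libraries lay close together. The means of 9931 ± 386 and 10280 ± 1353 CPM (± SD of 4 mice) corresponded to a log2 fold change of 0.05 (standard error 0.12, 95% interval -0.23 to 0.33), which was -0.04 without 4-HPAA replicate 4.

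Serpina3m was at 576, 285, 330 and 284 CPM with saline and at 353, 302, 357 and 326 CPM with 4-HPAA. Saline replicate 1 was the highest library, and the other saline libraries lay mostly below those with 4-HPAA. The means were 369 ± 140 and 334 ± 25.8 CPM (SD, n = 4 per group). The log2 fold change of -0.14 (standard error 0.21, 95% interval -0.61 to 0.33) became 0.16 without that library.

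Serpina3n (chr12:104406729-104414329, plus strand), an acute phase serpin known to inhibit granzyme B, was at 531, 424, 387 and 438 CPM with saline and at 496, 407, 349 and 413 CPM with 4-HPAA. In each group the mouse numbered 1 was highest and the mouse numbered 3 lowest. The means were 445 ± 61.1 and 416 ± 60.7 CPM (± SD of 4 mice), and the fitted log2 fold change was -0.10 (standard error 0.13). For Serpina3k, Serpina3m and Serpina3n merged, the log2 fold change was 0.04 (standard error 0.12).

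Saline replicate 1, highest for Serpina3m and Serpina3n, was also highest for 8 of 16 tested genes of the glucocorticoid list. Of 28 acute phase genes, 4 were highest there and 13 in 4-HPAA replicate 1. How often each library was highest over all genes was not counted, so no excess is read from these counts. The genes named next were chosen after their values were seen. Fkbp5, a chaperone induced by glucocorticoids, was at 293 CPM in saline replicate 1 against 121 to 211 CPM in the other 7 libraries. Lcn2, an acute phase protein, was at 17.6 CPM against 3.67 to 6.98 CPM. Mt1, a metallothionein, was at 603 CPM against 231 to 426 CPM, and Dusp1, an immediate early phosphatase, at 115 CPM against 34.5 to 69.4 CPM. Other glucocorticoid targets were higher elsewhere, such as Tat, a tyrosine-degrading enzyme, at 3461 CPM there and 3667 CPM in 4-HPAA replicate 4, and Zbtb16, at 52.7 CPM there and 55.2 to 85.5 CPM in the 4-HPAA libraries. Their part in the level of Serpina3m was not tested.

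Serpina6 (chr12:103646630-103657212, minus strand) was at 321, 274, 254 and 405 CPM with saline and at 346, 263, 221 and 284 CPM with 4-HPAA. Saline replicate 4 was highest, and the mouse numbered 3 was lowest in each group. The means were 314 ± 67.1 and 278 ± 51.9 CPM (± SD of 4 mice), and the fitted log2 fold change was -0.17 (standard error 0.17, 95% interval -0.55 to 0.21) and the smallest unadjusted p among the members (0.336, edgeR's quasi-likelihood test). Its libraries ranked much as those of Serpina1a and Serpina1b did (rho 0.90 to each, adjusted permutation p 0.0329 for both), whereas r (0.84 and 0.82) did not pass after adjustment (permutation p 0.0618 and 0.0746; r without 2 libraries 0.70 and 0.95). Serpina3n ranked with Serpina6 at a rho of 0.88 (adjusted permutation p 0.0435) with an r of 0.73 (adjusted 0.145; 0.70 without 2 libraries). Serpina1d had the highest r to Serpina6, 0.86 (rho 0.86, adjusted permutation p 0.0583 and 0.0551, r without 2 libraries 0.71).

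**Figure D5:**
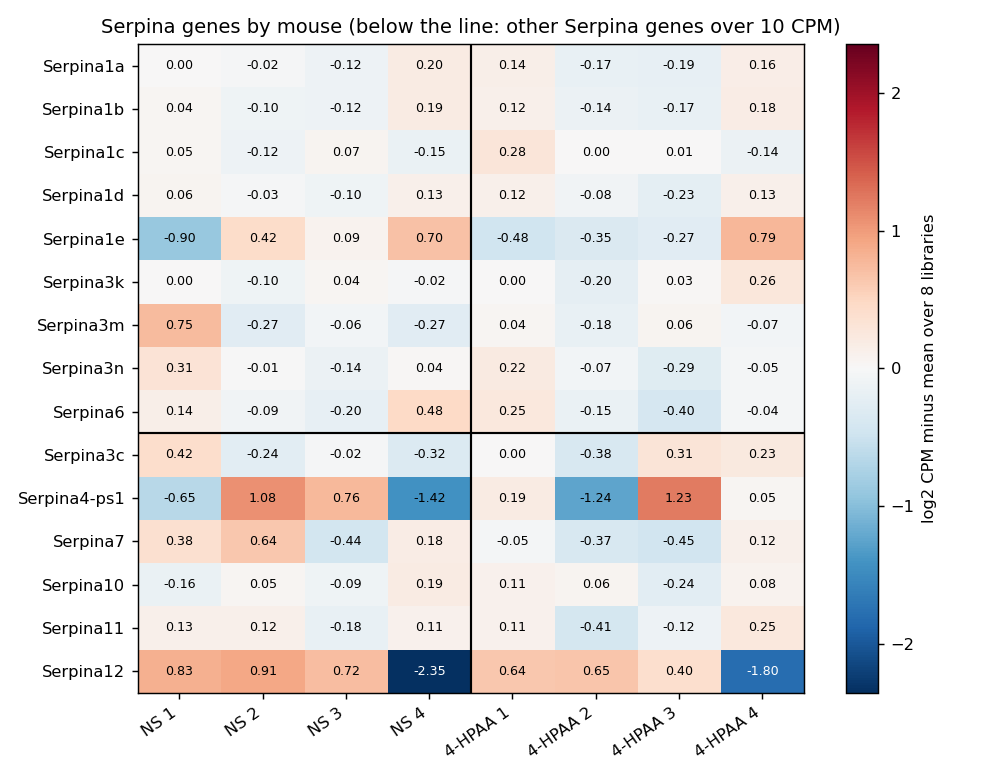
Log2 CPM of each gene minus its mean over the 8 libraries (color, with the value in each cell), for the 9 members and, below the line, the other 6 Serpina genes over 10 CPM; columns are mice, NS for Normal Saline. Serpina1e and Serpina12 show opposite signs in both mice numbered 4, and no row separates the groups.

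Of the 17 transcripts listed for the members, 11 held over 1% of their gene in some library and 6 did not. Serpina1a-202 held 96.7% to 97.7% of Serpina1a and Serpina1a-201 held 2.0% to 3.0%. Of Serpina1e, 84.6% to 89.0% was in Serpina1e-201 and 11% to 15.4% in Serpina1e-202. Both transcripts of Serpina1e varied between mice, Serpina1e-201 from 3166 to 10170 CPM and Serpina1e-202 from 542 to 1853 CPM, and both were highest in the mouse numbered 4 of each group. On the log2 scale they differed between groups by -0.15 ± 0.36 and -0.17 ± 0.42 (fold change ± standard error). The main transcripts Serpina1b-201, Serpina1c-201, Serpina1d-201, Serpina3k-201, Serpina3m-202, Serpina3n-201 and Serpina6-201 each held over 99% of their gene. Each member transcript tested had an adjusted p of 1.00 (edgeR's quasi-likelihood test over 25533 transcripts).

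For each member the genes with the most similar levels over the 8 libraries were taken as the 2 non-members with the highest Pearson r, given as a description since they are the extremes of all genes tested. They were Wdr83os and Nqo1 for Serpina1a (0.99 and 0.98), Mrpl27 and Atp5g1 for Serpina1b (0.98 each), and Ppp1r11 and Gm8893 for Serpina1d (0.98 each). Atp5g1, a subunit of ATP synthase, ran from 90.0 CPM in 4-HPAA replicate 3 to 124 CPM in saline replicate 4. For Serpina1e they were Adora1, an adenosine receptor, and Aen (0.98 and 0.97), with Adora1 at 35.1 and 34.6 CPM in the mice numbered 4 and 18.8 to 30.3 CPM in the others. For the other members they were Nans and Gpbp1l1 (Serpina1c, 0.96 and 0.94), Cebpg and Fkbp3 (Serpina3k, 0.96 and 0.94), Sult1d1 and Lpar1 (Serpina3m, 0.97 and 0.96), Fggy and Zbtb17 (Serpina3n, 0.96 and 0.95) and, for Serpina6, F11r (0.97).

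Among 17 further Serpina genes listed, 9 were tested and 0 passed in either direction; 6 had a higher and 3 a lower level with 4-HPAA, with a median log2 fold change of 0.03 against 0.00071 over all genes. A level over 10 CPM was found in 6, and 8 lay under 1 CPM in every library, among them Serpina1f, at 0 in all 8. Serpina7, thyroxine-binding globulin, was at 41.7 ± 12.1 CPM in saline mice and 31.4 ± 5.89 CPM in 4-HPAA mice (± SD of 4 mice; log2 fold change -0.41, standard error 0.21, unadjusted p 0.081 and adjusted p 1.00 by edgeR). Serpina10, protein Z-dependent inhibitor, was at 178 ± 19.7 and 178 ± 19.3 CPM, Serpina11 at 64.8 ± 6.39 and 61.6 ± 11.9 CPM and Serpina3c at 18.2 ± 4.46 and 19.2 ± 3.83 CPM. Serpina3g and Serpina3f followed Serpina7 in size of p, at 0.39 ± 0.29 and 0.34 ± 0.36 (log2 fold change ± standard error).

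Genes that act with the members were examined in lists drawn up with earlier results of these data known. No gene of any list passed the adjusted threshold. Of 13 tested serpins of other clades, 3 were higher and 10 lower with 4-HPAA (median log2 fold change -0.05). Among them Serpinb8 was at 2.88 ± 0.595 and 2.43 ± 0.492 CPM. Serpinc1, antithrombin, was at 1741 ± 133 and 1623 ± 131 CPM. Of 17 other plasma protease inhibitors, 7 were higher and 10 lower (median -0.01), and the smallest p belonged to Itih3, Itih4 and Itih1, heavy chains of inter-alpha-trypsin inhibitor, with log2 fold changes of -0.11, -0.09 and -0.09. Of 19 serine proteases, 4 were higher and 15 lower (median -0.03), led by Prtn3 (1.49 ± 1.18 and 0.799 ± 0.451 CPM), Masp2 (233 ± 17.4 and 215 ± 12.6 CPM) and Hgfac (233 ± 23.3 and 211 ± 26.1 CPM). These 3 lists held 0 genes at an unadjusted p under 0.05.

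Among 28 acute phase genes, 12 were higher and 16 lower (median -0.01), and 1 had an unadjusted p under 0.05, where 1.75% of all genes did. This was Apcs, serum amyloid P, at 73.7 ± 17.0 CPM with saline and 54.3 ± 7.19 CPM with 4-HPAA (log2 fold change -0.44, standard error 0.17, unadjusted p 0.0239, adjusted p 1.00 by edgeR). Lcn2 and Saa3 followed, at -0.76 ± 0.44 and 0.30 ± 0.19 (log2 fold change ± standard error). In the list of 14 transcription factors of liver genes 6 were higher and 8 lower, and 1 had an unadjusted p under 0.05 (1.75% of all genes). Foxa2 was at 15.0 ± 3.42 and 23.1 ± 8.57 CPM (log2 fold change 0.63, unadjusted p 0.0432, adjusted p 1.00 by edgeR), followed by Nr1h4 (-0.13) and Cebpa (0.19).

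Of 16 genes that bind, activate or respond to glucocorticoids, the ligand of corticosteroid-binding globulin, 6 were higher and 10 lower (median -0.04), and 2 had an unadjusted p under 0.05, against 1.75% of all genes. Zbtb16, a glucocorticoid-induced transcription factor, was at 43.1 ± 9.59 and 66.8 ± 13.1 CPM (log2 fold change 0.63, standard error 0.18, unadjusted p 0.00578). Tsc22d3, the glucocorticoid-induced leucine zipper, was at 129 ± 23.2 and 107 ± 2.81 CPM (log2 fold change -0.27, unadjusted p 0.0478), and Sgk1 at 21.7 ± 5.97 and 17.0 ± 1.89 CPM. The adjusted p of all 3 was 1.00 (edgeR's quasi-likelihood test). Of 24 genes for folding, export and clearance of secreted proteins, 11 were higher and 13 lower (median -0.0043), and 0 had an unadjusted p under 0.05. Pdia4 (-0.24), Sec23a (0.12) and Calr (-0.13) had the smallest p.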

How the data were processed

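Liver RNA of 4 saline and 4 4-HPAA mice was sequenced from stranded mRNA libraries. The authors pseudo-aligned the reads with kallisto and deposited estimated counts per transcript, unnormalized and unpooled. The paper names GRCm38.p6, while identifiers are from Ensembl. Columns were matched to mice by name, and 0 were left without a sample.

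Expected counts of 116728 of 119414 deposited transcripts were summed per gene by GENCODE M21 and rounded. The 2686 unmatched transcripts held 0.703% to 1.06% of counts. A gene was kept if each library held 10 or more counts, and the test was edgeR's quasi-likelihood F test (4.0.16, R 4.3.3) with TMM scaling and Benjamini-Hochberg adjustment. The standard error was taken from the fold change and its F. Precision is set by the spread of 4 mice. Alternatives were DESeq2 1.42.0, limma-voom 3.58.1, RLE or total-count scaling, other filters, each library left out, the replicate number as a block, merged paralogs, coding transcripts and single transcripts. Sequences were aligned with MAFFT 7.526, in Python 3.11.15.

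Members and gene lists were chosen with earlier results of these data known. Correlations between members, motifs and the setting without both libraries numbered 4 were added after the data were seen. Named are the members, other Serpina genes over 10 CPM, the 3 genes of smallest p per list, the 2 most similar non-members and transcripts over 1% of a gene. A few genes that this rule names are not reported here.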

Additional observations from a re-analysis of the deposited data

Results flagged for a closer look

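In groups of 4 mice, a library was singled out when its gap to the nearest of the others exceeded Dixon's 95% critical share of the range of the group. This held in 9 of 90 groups examined, where chance gives about 1 in 20, or 4.5. The groups reuse the same libraries and are not independent, so no excess is read from this count. Among the members, Serpina1e was at 11785 CPM in 4-HPAA replicate 4 against 4903 to 5657 CPM in the rest of its group, and Serpina3m at 576 CPM in saline replicate 1 against 284 to 330 CPM. In 4-HPAA replicate 4, Serpina1c held 18.8% of the Serpina1 counts against 27.8% to 29.5% in the rest, and in saline replicate 1, Serpina1d held 14.8% against 11.7% to 12.1%. The shares sum to 100%, so they are not independent of the level of Serpina1e: the CPM of Serpina1d in saline replicate 1 (3729) lay within the range of its group (3333 to 3891), and Serpina1e was lowest there.

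Other Serpina genes set apart in this way were Serpina10, at 150 CPM in 4-HPAA replicate 3 against 185 to 191 CPM, and Serpina11, at 55.2 CPM in saline replicate 3 against 67.4 to 68.4 CPM. Serpina12 was at 2.89 CPM in saline replicate 4 against 24.4 to 27.8 CPM, and Serpina3f at 3.48 CPM in saline replicate 3 against 2.20 to 2.33 CPM. Among the genes of the lists, Lcn2 was at 17.6 CPM in saline replicate 1 against 4.43 to 5.21 CPM.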

How the results depend on the processing

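No alternative brought a member past an adjusted p of 0.05 (0 of 9 in each of 17, and 0 at an unadjusted p under 0.05). Of 207 alternative fold changes, 179 kept their direction and 28 turned, with a smallest adjusted p of 0.999. Over the fits without 1 library, log2 fold changes ran from -0.14 to 0.053 for merged Serpina1, -0.091 to 0.039 for Serpina1a, -0.071 to 0.064 for Serpina1b, -0.0011 to 0.13 for Serpina1c, -0.081 to 0.040 for Serpina1d, -0.56 to 0.050 for Serpina1e, -0.046 to 0.10 for the merged Serpina3 genes, -0.040 to 0.12 for Serpina3k, -0.25 to 0.16 for Serpina3m, -0.19 to -0.00063 for Serpina3n and -0.29 to -0.024 for Serpina6. The differences in share ran from -0.45 to 0.75 points for Serpina1a, -0.20 to 1.40 for Serpina1b, 0.33 to 4.46 for Serpina1c, -0.30 to 0.71 for Serpina1d and -6.40 to -0.12 for Serpina1e. Serpina1b turned to 0.0018 with RLE factors and with DESeq2, to 0.0047 without a filter and with 10 counts summed over libraries, and to 0.0087 and 0.054 for its transcripts Serpina1b-201 and Serpina1b-202. Without both libraries numbered 4, Serpina3k was at -0.037 and the merged Serpina3 genes at -0.047. Merging replaced Serpina1c by -0.031, and Serpina3m and Serpina3n by 0.038, by construction.

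Between same-numbered libraries, deviations from the group means correlated over genes at 0.04, 0.17, 0.27 and 0.48 for replicates 1 to 4. Saline replicate 1 correlated best with 4-HPAA replicate 4 (0.14), and 4-HPAA replicate 2 with saline replicate 3 (0.47). The labels do not say whether same-numbered mice were handled together, so the numbers were not taken as pairs. A batch shared by same-numbered mice therefore cannot be told apart from other variation between mice. With the replicate block the merged Serpina1 log2 fold change was -0.04 (standard error 0.12), and 0 members passed. Each member had a smaller standard error with the block than without it. The values were 0.19 against 0.36 for Serpina1e, 0.07 against 0.13 for Serpina3n and 0.11 against 0.17 for Serpina6. With the block, 336 of all genes had an unadjusted p under 0.05 in edgeR against 225 without it. Over all genes, DESeq2 called 2 and the fit without 4-HPAA replicate 1 called 1 at the adjusted threshold. The count at an unadjusted p under 0.05 was 340 without 4-HPAA replicate 1, 528 without a filter and 415 with 10 counts summed over libraries. With 4 mice per group, changes within the printed intervals were not excluded, and the split of reads between Serpina1a and Serpina1c is limited by shared sequence.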

Other observations

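Among the other Serpina genes over 10 CPM, a pair varied more between mice than any member. Serpina12, which encodes the adipokine vaspin, was at 26.2, 27.8, 24.4 and 2.89 CPM in saline replicates 1 to 4 and at 22.9, 23.1, 19.5 and 4.23 CPM in 4-HPAA replicates 1 to 4, a span of 9.62-fold. It was lowest in the mouse numbered 4 of each group, the mice in which Serpina1e was highest. Serpina4-ps1, a pseudogene, was at 77.4, 258, 207 and 45.5 CPM with saline and at 139, 51.6, 285 and 126 CPM with 4-HPAA, a span of 6.26-fold. Onecut1, a liver transcription factor named after its values were seen, was at 16.3, 137, 100 and 12.9 CPM with saline and at 38.6, 33.9, 134 and 34.1 CPM with 4-HPAA, and so was highest in the same 3 libraries as Serpina4-ps1.

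Transcripts known to be higher in female than in male liver (7 genes, 4 of them under 1 CPM in every library) summed to 283 CPM in saline replicate 4, 58.3 CPM in saline replicate 1 and 38.6 CPM in 4-HPAA replicate 4, against 6.54 to 10.9 CPM in the other 5 libraries. Cyp2a4 alone was at 275, 28.2 and 32.3 CPM in those libraries, and the other 6 genes summed to 7.56, 30.1 and 6.33 CPM there and to between 5.74 and 8.58 CPM elsewhere. Transcripts known to be higher in male liver (6 genes) summed to between 4543 CPM in saline replicate 1 and 8803 CPM in 4-HPAA replicate 4. All 8 libraries held transcripts of Y-linked genes at 152 to 180 CPM in sum, as male livers do. Serpina1e was high in saline replicate 4 and 4-HPAA replicate 4 but lowest of all in saline replicate 1. How these values relate was not tested.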
